A study of Mus musculus with 28 samples.

Results

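Matrix metalloproteinases (MMPs), the ADAM and ADAMTS proteases and the tissue inhibitors of metalloproteinases (TIMPs) were followed through the conversion of mouse embryonic fibroblasts (MEFs) into induced pluripotent stem (iPS) cells. The members were taken by name: every gene whose symbol is Mmp, Adam, Adamts or Timp followed by a number and at most 1 letter. On the main set of 24 arrays, 53 of the 11807 genes measured met this rule, 18 Mmp, 25 Adam, 7 Adamts and 3 Timp genes. A separate set of 4 arrays, analysed apart and described last, measured 54 of 12394 genes, the extra one being Timp4.

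The fibroblasts came from E13.5 embryos of a reprogrammable C57BL6/129 mouse strain that carries a doxycycline-inducible OKSM cassette (Oct4, Klf4, Sox2 and c-Myc) and a Rosa26-M2rtTA allele. The labels name cultures with 1 copy (het/het) and with 2 copies (ho/ho) of these alleles and do not assign the samples to them, so copy number could not be examined. The MEF arrays are titled KH2-MEF and the iPS arrays KH2-SC_MEF, and whether their alleles differ cannot be told from these names. Reprogramming ran in embryonic stem cell medium with serum and LIF in the presence of doxycycline. MEFs (2 arrays, day 0, Thy1-positive) were compared with cells sorted by the fibroblast surface protein Thy1 and the early pluripotency surface antigen SSEA1. The sorted groups were Thy1+ cells, cells negative for both markers (called Thy1- here) and SSEA1+ cells, each with 2 arrays on day 3, 2 on day 6, 1 on day 9 and 1 on day 12. One array held day 12 SSEA1+ cells that had also turned on a GFP reporter (GFP+ here; the labels do not name the reporter gene), and 3 arrays held iPS cells named 1-3, 1-5 and 1-6, preplated to remove feeder cells. The labels say neither that arrays of a group come from separate embryos or cultures nor what the replicate names M2 and M3 mean, so the p-values cover array-to-array spread alone, possibly a technical one.

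MMPs are secreted or membrane-anchored zinc enzymes, made as inactive precursors, that cut collagens, gelatin, proteoglycans and many surface proteins. ADAMs release the outer parts of membrane proteins, ADAMTS enzymes cut proteoglycans and process matrix fibres, and TIMPs block the active sites of MMPs and of some ADAM and ADAMTS enzymes. Embryonic fibroblasts make and remodel a collagen-rich matrix, whereas pluripotent cells grow as compact epithelial colonies. These are bulk arrays: fewer cells of a type and less RNA per cell cannot be told apart.

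The labelled cell types matched their markers. All 11 measured pluripotency markers were higher in iPS cells than in MEFs, and 10 of 12 fibroblast markers were lower. The mean log2 level of the fibroblast list was 11.74 in MEFs and 7.79 in iPS cells, and within iPS cells it ran from 7.40 to 8.23, highest in iPS 1-3. Array medians ran from log2 6.84 to 6.99. The day 6 Thy1+ M2 array had a 3′ minus 5′ Gapdh signal of 1.78 against at most 1.11 on the other 23 arrays, a sign of less intact RNA. The members called between SSEA1+ and Thy1+ cells are also given without it. Through the spread shared by all groups it also enters the SE and adjusted p of comparisons without day 6 Thy1+ cells, which are mostly given with it. Omissions of 1 array took out each compared array in turn (except the single GFP+ array) and, on the main set, also this one. Of the 53 members, 25 had a mean among the dimmest 25% of genes (below log2 5.09), where a difference is hard to see. A level here is the log2 signal of 1 probe set per gene and can be compared between groups, not between genes.

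A member was called changed when limma's moderated test gave an adjusted p (Benjamini-Hochberg over all genes) below 0.05 and the groups differed at least 2-fold. By that rule 25 of the 53 members changed in at least 1 comparison of the main set. The other 28 were called in none, and 24 of these were among the dimmest genes. The share of all genes changed in at least 1 comparison was not counted, so these pooled counts have no background to be read against. Between MEFs and iPS cells alone, 30.8% of all genes were called. All the comparisons with MEFs share the same 2 MEF arrays, so their counts are given side by side and are not independent of each other.

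Between MEFs and iPS cells, 21 members fell and none rose, where 30.8% of all genes were called and these split evenly into 1824 higher and 1807 lower. The median difference of the 53 members was -0.53 on the log2 scale, and that of all genes was 0.01. Adam12 fell 86.5-fold, Adamts5 51.1-fold, Mmp23 26.6-fold, Adamts1 24.4-fold and Mmp14 19.0-fold. All 3 TIMPs fell, as did 6 of 7 ADAMTS genes, 6 of 18 Mmp genes and 6 of 25 Adam genes. Of these 21, Adam23 alone lost its call with 1 array left out: its fall of 1.08 on the log2 scale was below 2-fold without the iPS 1-3 array (-0.88) or without the MEF M2 array (-0.95).

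Loss of protease transcripts was already seen on day 3. In day 3 SSEA1+ cells 17 members differed from MEFs, 16 lower and 1 higher, at 16.1% of all genes called. In day 3 Thy1+ cells 11 differed, 10 lower and 1 higher, at 10.7% of all genes called. The member that rose in both was Adamts7. The 18S signal, a trace of ribosomal RNA, was log2 9.26 and 9.04 in MEFs and 7.08 to 8.18 in the sorted cells of days 3 and 6, and its part in these differences was not tested.

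**Figure D1:**
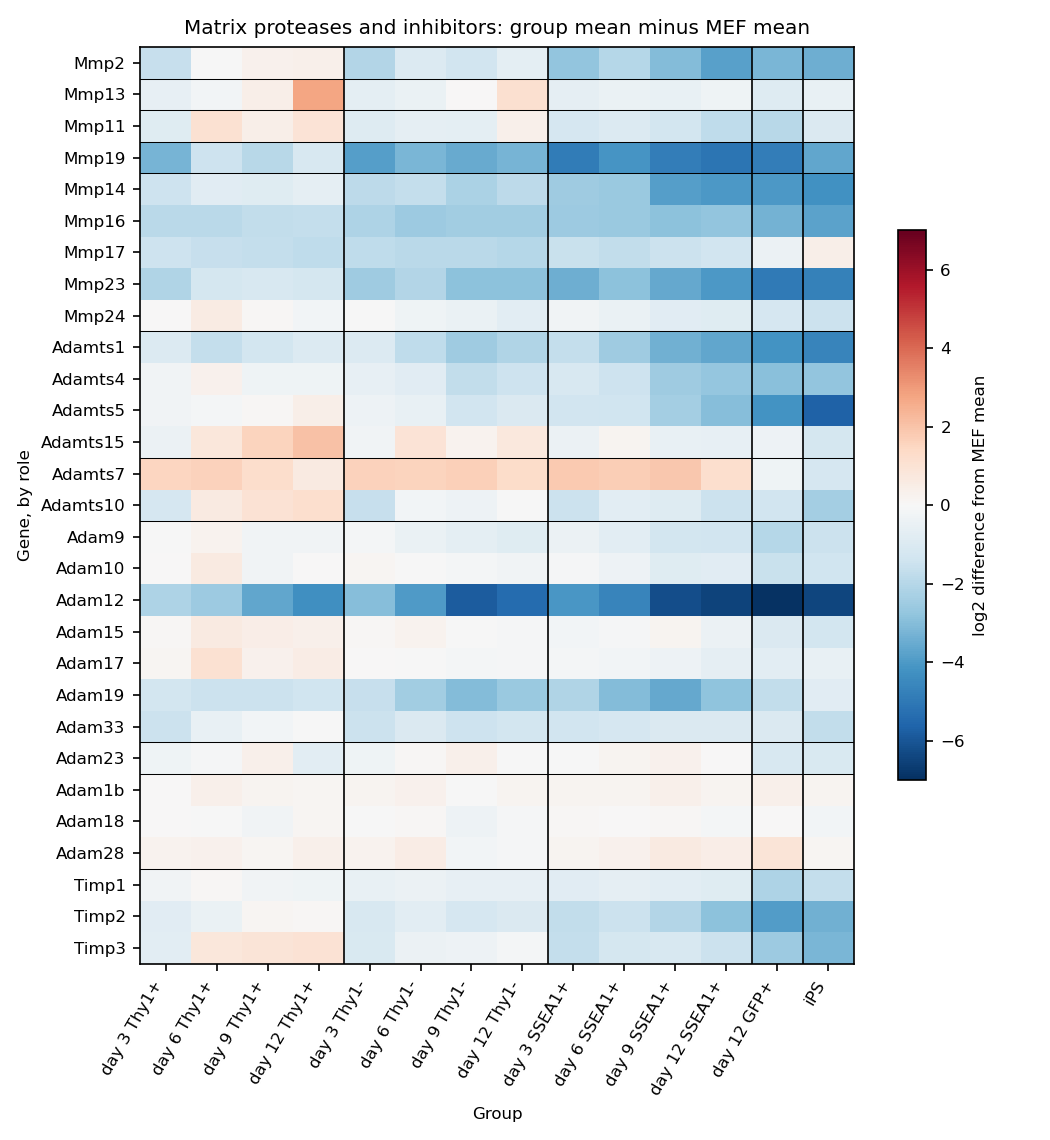
Mean log2 level of 29 members in each group minus their mean in MEFs, with groups as columns and genes as rows. The members shown are the 28 whose mean is above the dimmest 25% of genes, and Mmp13. Adam12, Adamts5, Mmp23 and Mmp14 are deep blue in iPS cells, Adamts7 is red in the sorted groups, and Mmp13 and Adamts15 are red in the day 12 Thy1+ column.

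Mmp2 is the gelatinase that cuts denatured collagen and the type IV collagen of basement membranes. It fell early and was back at the MEF level in Thy1+ cells alone. In MEFs it was at log2 10.15 and 10.13. Thy1+ cells held it at 8.37 and 8.69 on day 3, 10.15 and 10.11 on day 6, 10.44 on day 9 and 10.49 on day 12. In SSEA1+ cells it was at 7.32 and 7.42 on day 3, 8.10 and 8.18 on day 6, 7.11 on day 9 and 6.33 on day 12. The Thy1- fraction lay between these on every day. It rose too, from 8.01 and 8.16 on day 3 to 9.35 and 9.06 on day 6, 8.83 on day 9 and 9.47 on day 12. The GFP+ array was at 6.94 and iPS cells at 6.85, 6.25 and 7.07. Thy1+ cells were thus below MEFs on day 3 and level with or above them from day 6, and the SSEA1+ and Thy1+ arrays did not overlap on any day.

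The test values for Mmp2 follow that course. It fell 10.7-fold from MEFs to iPS cells (log2 difference -3.42, SE 0.19, adjusted p 1.64e-09) and rose 3.82-fold in Thy1+ cells between day 3 and days 9 and 12 (1.93, SE 0.21, adjusted p 1.51e-05). Over all days it was 4.92-fold lower in SSEA1+ than in Thy1+ cells (-2.30, SE 0.31, adjusted p 3.83e-05). Mmp9, the other gelatinase and a product mainly of white blood cells and bone cells, was between 4.45 and 5.37 on every array and was called nowhere.

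Mmp14, a membrane-anchored collagenase that activates the Mmp2 precursor with the help of Timp2, lay at 10.61 and 10.48 in MEFs. Its levels in Thy1+ cells were 9.06 and 9.10 on day 3, 10.05 and 9.50 on day 6, 9.68 on day 9 and 9.90 on day 12. SSEA1+ cells had 8.02 and 8.06, then 7.95 and 7.92, then 6.68 and 6.53. The GFP+ array was at 6.53 and iPS cells were at 6.32, 5.93 and 6.64. SSEA1+ cells of days 9 and 12 were therefore next to the highest iPS array, while no Thy1+ array fell below 9.06. The fall from day 6 to days 9 and 12 in SSEA1+ cells was 1.33 on the log2 scale (SE 0.20, adjusted p 0.00136). The second Mmp14 probe set differed by -0.54 there and was not called (adjusted p 0.14).

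Among the other membrane-bound members, Mmp23, a small transmembrane enzyme released by its own cleavage, was at 11.77 and 11.70 in MEFs. It was at 9.59 and 9.68 in day 3 Thy1+ cells, 8.32 and 8.29 in day 3 SSEA1+ cells, and 6.89, 6.82 and 7.29 in iPS cells. Every sorted array lay below both MEF arrays. Mmp16, also called MT3-MMP, dropped from 8.15 and 7.93 in MEFs to 6.18 and 6.08 in day 3 Thy1+ and 5.50 and 5.47 in day 3 SSEA1+ cells. It then stayed between 5.17 and 6.38 in Thy1+, Thy1- and SSEA1+ cells and was at 4.54, 3.76 and 4.63 in iPS cells. For Mmp16, unlike Mmp2, the late Thy1+ cells remained 1.70 log2 units below MEFs (SE 0.26, adjusted p 0.000241). Mmp24, known from the nervous system, fell 1.50 on the log2 scale from MEFs to iPS cells, but its second probe set differed by -0.22 (adjusted p 0.368).

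Mmp19, a secreted enzyme of basement membranes, showed the largest day 3 fall of any member. MEFs were at 9.56 and 9.69, day 3 Thy1+ cells at 6.51 and 6.28, and day 3 SSEA1+ cells at 4.56 and 4.97. The falls were 9.44-fold in Thy1+ (-3.24, SE 0.41, adjusted p 3.77e-05) and 29.2-fold in SSEA1+ cells (-4.87, SE 0.41, adjusted p 4.24e-07). Thy1+ cells were later at 9.02 and 7.39 on day 6, 7.67 on day 9 and 8.50 on day 12, and iPS cells were at 5.74, 5.75 and 6.51. The late rise in Thy1+ cells (1.69, SE 0.41, adjusted p 0.00897) lost its call without the day 12 array (1.28, adjusted p 0.137) or without the day 3 M3 array (1.58, adjusted p 0.0711). The dimmer probe set of Mmp19 fell from MEFs to iPS cells too (-2.00), but did not show the late rise (0.31, adjusted p 0.209) and differed by -0.31 between SSEA1+ and Thy1+ cells (adjusted p 0.0502).

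Mmp11, or stromelysin-3, which furin activates inside the cell, was at 9.44 and 9.36 in MEFs and at 8.51 and 8.58 in day 3 Thy1+ cells. It stood at 9.82 on day 9 and 10.33 on day 12. On day 6 its Thy1+ arrays disagreed, with 11.50 on the M2 array of doubtful RNA and 9.42 on the M3 array. The difference between SSEA1+ and Thy1+ cells over all days was -1.52 (SE 0.35, adjusted p 0.00251) and was -1.18 without that array. The late Thy1+ rise of Mmp11 (1.54, adjusted p 0.0182 by limma) lost its call without the day 12 array or either day 3 array. Its fall in day 3 SSEA1+ cells lost its call in 4 of 5 single-array omissions. Those 5 include the day 6 Thy1+ M2 array, which is outside that comparison.

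Mmp13, the main interstitial collagenase of rodents, was near the floor of the array except late in the Thy1+ and Thy1- fractions. MEFs were at 3.40 and 3.67, and Thy1+ cells at 2.95 and 2.93 on day 3, 3.41 and 3.25 on day 6, 3.97 on day 9 and 6.32 on day 12. The Thy1- fraction reached 3.57 and 4.66 on those last days, while no SSEA1+ array exceeded 3.31, the GFP+ array was at 2.60 and iPS cells were at 3.11, 2.89 and 2.98. The day 12 Thy1+ array alone was above log2 5.09, the limit of the dimmest genes, and the day 12 Thy1- array came next. The mean of days 9 and 12 was 4.61-fold above day 3 in Thy1+ cells (2.20, SE 0.17, adjusted p 5.96e-07) and 3.06-fold above MEFs (1.61, SE 0.17, adjusted p 9.29e-06). Without the day 12 array the first difference was still called, at 1.03, and the second was 0.44 (adjusted p 0.209). The 18S signal was also high on that array, log2 9.25 against 7.22 on the day 9 Thy1+ array, and its part was not tested.

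Mmp13 opens a run of Mmp genes on mouse chromosome 9, 10 protein-coding genes of which 9 were measured. Promoters of inducible MMP genes are known for an AP-1 site close to a TATA box, and the windows below are shown because the single member of the run that rose can be set beside neighbours that carry the same letters. Windows of 250 bases before to 50 bases after the RefSeq start (GRCm38.p6) were matched for 29 of the 53 members. TGANTCA, the core AP-1 letters, and TATAAA were searched on both strands, and the motifs share no bases in the windows shown. Of the 9 clustered genes, 8 held TGANTCA (Mmp8 did not) and 9 held TATAAA. Of the 20 other members matched, 3 held TGANTCA (Adam19, Adam1b and Adam25) and 1 held TATAAA (Adamts1). Among all 27025 genes with a window, counted in the same way, 8.97% held TGANTCA, 15.7% held TATAAA and 2.08% held both. The 150 bases before the start follow 5′ to 3′, with TGANTCA and TATAAA matches in capitals, for Mmp13 (chr9:7272364-7272513, plus strand), for the stromelysins Mmp3 (chr9:7445672-7445821, plus strand) and Mmp10 (chr9:7502192-7502341, plus strand), and for Mmp14 (chr14:54431448-54431597, plus strand), which fell in reprogramming and has neither motif here.
Mmp13: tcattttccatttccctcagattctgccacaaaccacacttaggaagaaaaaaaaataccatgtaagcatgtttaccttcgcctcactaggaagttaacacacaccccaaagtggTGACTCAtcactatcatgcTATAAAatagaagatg
Mmp3: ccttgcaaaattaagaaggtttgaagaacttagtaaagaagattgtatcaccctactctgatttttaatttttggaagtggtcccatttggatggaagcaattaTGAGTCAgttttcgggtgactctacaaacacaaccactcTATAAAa
Mmp10: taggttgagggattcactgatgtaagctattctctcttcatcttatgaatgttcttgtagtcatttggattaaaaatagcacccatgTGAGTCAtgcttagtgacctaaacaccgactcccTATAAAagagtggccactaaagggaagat
Mmp14: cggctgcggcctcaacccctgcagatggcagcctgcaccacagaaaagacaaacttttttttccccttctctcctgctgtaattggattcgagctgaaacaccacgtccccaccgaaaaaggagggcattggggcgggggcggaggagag

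These matches are a description of letters and not of bound sites. Mmp3, which degrades proteoglycans and activates other MMP precursors, was at 5.01 and 4.94 in MEFs and 4.69 and 4.80 in day 3 Thy1+ cells. It reached 5.83 in day 12 Thy1+ cells, its highest array. Its late Thy1+ difference from day 3 was 0.64 (SE 0.16, adjusted p 0.0113), under 2-fold and so not called. Mmp10 had its highest level, 4.21, on the same array, and its late difference was 0.48 (adjusted p 0.0516). The other 6 measured genes of the run (Mmp12, Mmp1b, Mmp1a, Mmp8, Mmp20 and Mmp7) stayed between 2.62 and 4.41 on every array and were called nowhere.

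Of 9 measured AP-1 subunits, 3 rose in Thy1+ cells between day 3 and days 9 and 12, where 4.36% of all genes rose. They were Fosb by 2.71, Junb by 1.26 and Jun by 1.15 on the log2 scale. Against MEFs, no AP-1 subunit was called in late Thy1+ cells. A rise was not particular to Thy1+ cells: Fosb also rose by 2.30 in SSEA1+ cells between day 3 and day 6. The AP-1 list mean went from 7.8 on day 3 to 8.9 on day 6 in Thy1+, 7.8 to 8.7 in Thy1- and 7.9 to 8.5 in SSEA1+ cells. In Thy1+ cells Fosb was at 6.17 and 7.42 on day 3, 10.20 and 10.06 on day 6, 8.83 on day 9 and 10.19 on day 12. MEFs had Fosb at 9.93 and 9.45. Of 15 macrophage markers, Lyz2 (2.05) and Cd14 (1.20) rose in the same late Thy1+ comparison with day 3. The mean of the macrophage list ran from 4.56 to 4.97 across all groups, and Ptprc, a defining gene of white blood cells, was between 2.68 and 3.40 on all 24 arrays. The part of AP-1 subunits or of macrophages in the Mmp13 rise was not tested.

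**Figure D2:**
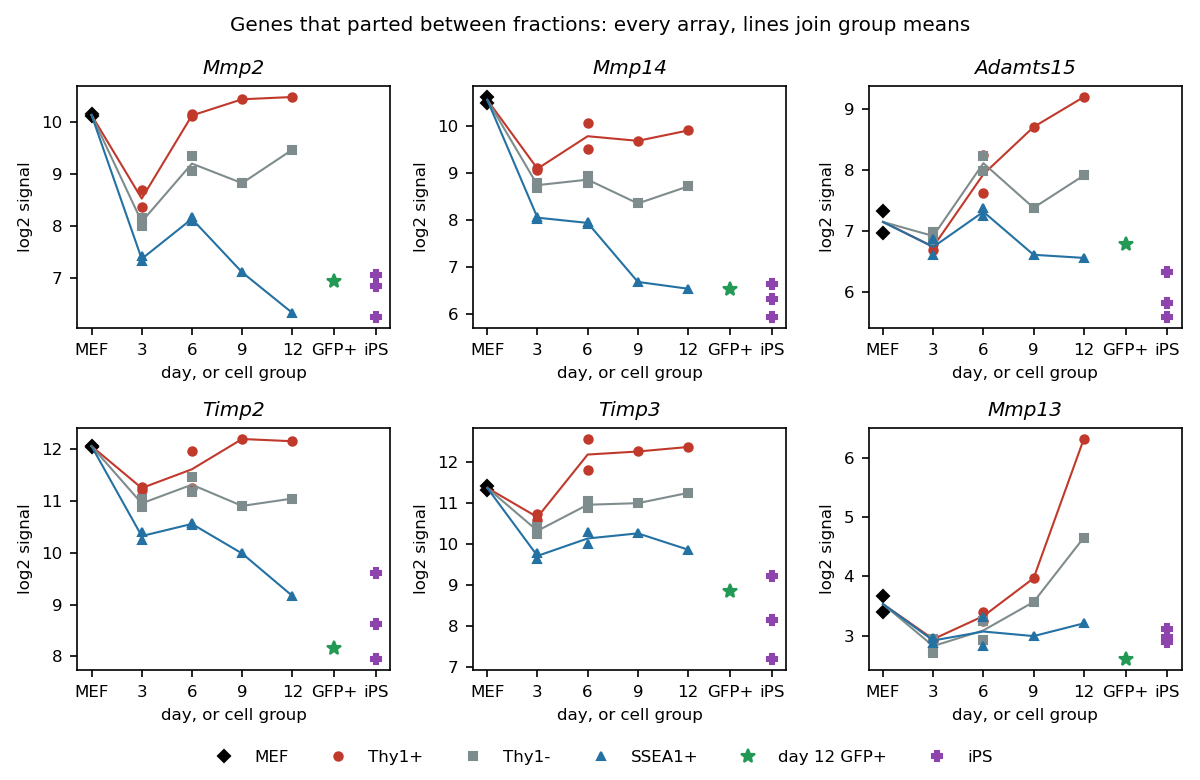
Log2 level of Mmp2, Mmp14, Adamts15, Timp2, Timp3 and Mmp13 on each array against day, coloured by sorted fraction, with lines joining group means from MEFs on the left and with GFP+ and iPS arrays drawn apart. Thy1+ points climb after day 3 for Mmp2 and Adamts15 while SSEA1+ points end below their day 3 level, and the single high Mmp13 point is the day 12 Thy1+ array at 6.32.

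The proteoglycan-cutting ADAMTS genes fell with reprogramming and did so unevenly in time. Adamts5, the major aggrecan-degrading enzyme of mouse cartilage, was at 11.43 and 11.33 in MEFs and between 11.01 and 11.81 on all 6 Thy1+ arrays. SSEA1+ cells had 9.95 and 10.13 on day 3, 9.84 and 10.10 on day 6, 9.00 on day 9 and 8.40 on day 12. The GFP+ array was at 7.20 and iPS cells were at 5.62, 5.04 and 6.45. On this probe set Thy1+ cells stayed around the MEF level while SSEA1+, GFP+ and iPS cells did not overlap. On the second Adamts5 probe set the GFP+ array, at 5.45, lay within the iPS range of 5.16 to 5.56, so the step from GFP+ to iPS cells rests on 1 of 2 probe sets.

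Adamts5 and Adamts10 were the 2 members that fell between the GFP+ array and iPS cells, at 7.23% of all genes called. Adamts5 was 2.82-fold lower in iPS cells (-1.50, SE 0.36, adjusted p 0.0104) on the probe set used, but its second probe set differed by -0.14 (adjusted p 0.85), and Adamts10, which binds fibrillin microfibrils, was 2.11-fold lower (-1.08, SE 0.20, adjusted p 0.00213). The GFP+ group is a single array, so the spread in this test comes from the other groups. With only these 4 arrays in the fit no member was called. Without the iPS 1-5 array 1 was, since Adamts10 was then under 2-fold (-0.92), and without the iPS 1-3 array 4 were.

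Adamts1, an inducible versican-cutting enzyme, was at 11.06 and 11.02 in MEFs, 10.15 and 9.99 in day 3 Thy1+ cells and 9.49 and 9.25 in day 3 SSEA1+ cells. By day 12 the levels were 10.09 in Thy1+, 8.94 in Thy1- and 7.42 in SSEA1+ cells, and iPS cells were at 6.30, 5.89 and 7.10. Adamts4, the other classic aggrecanase, was held by Thy1+ cells between 9.36 and 10.16, against 9.71 and 9.60 in MEFs. SSEA1+ cells went from 8.48 and 8.62 on day 3 to 6.93 on day 12, next to iPS cells at 7.03, 6.59 and 7.08. On the second Adamts4 probe set the day 12 SSEA1+ array, at 5.99, was above all iPS arrays (5.39, 5.26 and 5.25). The day 6 to days 9 and 12 fall of Adamts4 in SSEA1+ cells was 1.16 on the log2 scale (SE 0.17, adjusted p 0.000857).

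Adamts15, also a cutter of aggrecan and versican, took another course. MEFs were at 6.96 and 7.33, day 3 Thy1+ cells at 6.69 and 6.79, day 6 at 7.61 and 8.24, day 9 at 8.70 and day 12 at 9.19. SSEA1+ cells were at 6.87 and 6.60 on day 3, 7.37 and 7.25 on day 6, 6.61 on day 9 and 6.56 on day 12, and iPS cells were at 5.59, 5.83 and 6.32. Thy1- cells rose as well, from 6.97 and 6.86 on day 3 to 7.98 and 8.23 on day 6, 7.38 on day 9 and 7.91 on day 12. Late Thy1+ and late Thy1- cells thus lay above every MEF array, and late SSEA1+ cells below. The late Thy1+ level was 4.61-fold above day 3 (2.20, SE 0.24, adjusted p 1.36e-05) and 3.48-fold above MEFs (1.80, SE 0.24, adjusted p 6.64e-05). Adamts10 behaved alike in that fraction, at 7.24 and 7.27 on day 3 and 9.46 and 9.60 on days 9 and 12. It rose by 2.27 from day 3 (SE 0.18, adjusted p 4.87e-07) and stood 1.11 above MEFs, a difference that was 0.98 without the MEF M2 array and so under 2-fold. In Thy1- cells Adamts10 was also higher late, at 6.74 and 6.85 on day 3 and 8.07 and 8.42 on days 9 and 12.

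Adamts7, which cuts cartilage oligomeric matrix protein, was the one member that rose on day 3. MEFs were at 6.91 and 6.71, day 3 Thy1+ cells at 8.36 and 8.26 and day 3 SSEA1+ cells at 8.65 and 8.69. The rise was 2.83-fold in Thy1+ (1.50, SE 0.22, adjusted p 0.000138) and 3.63-fold in SSEA1+ cells (1.86, SE 0.22, adjusted p 1.14e-05). All 18 sorted arrays lay between 7.42 and 8.90, above both MEF arrays, and the GFP+ array was at 6.52. In iPS cells Adamts7 was at 5.49, 5.81 and 5.56, a fall of 1.19 log2 units from MEFs. The gene was thus high in intermediates and lower at both ends of the series.

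**Figure D3:**
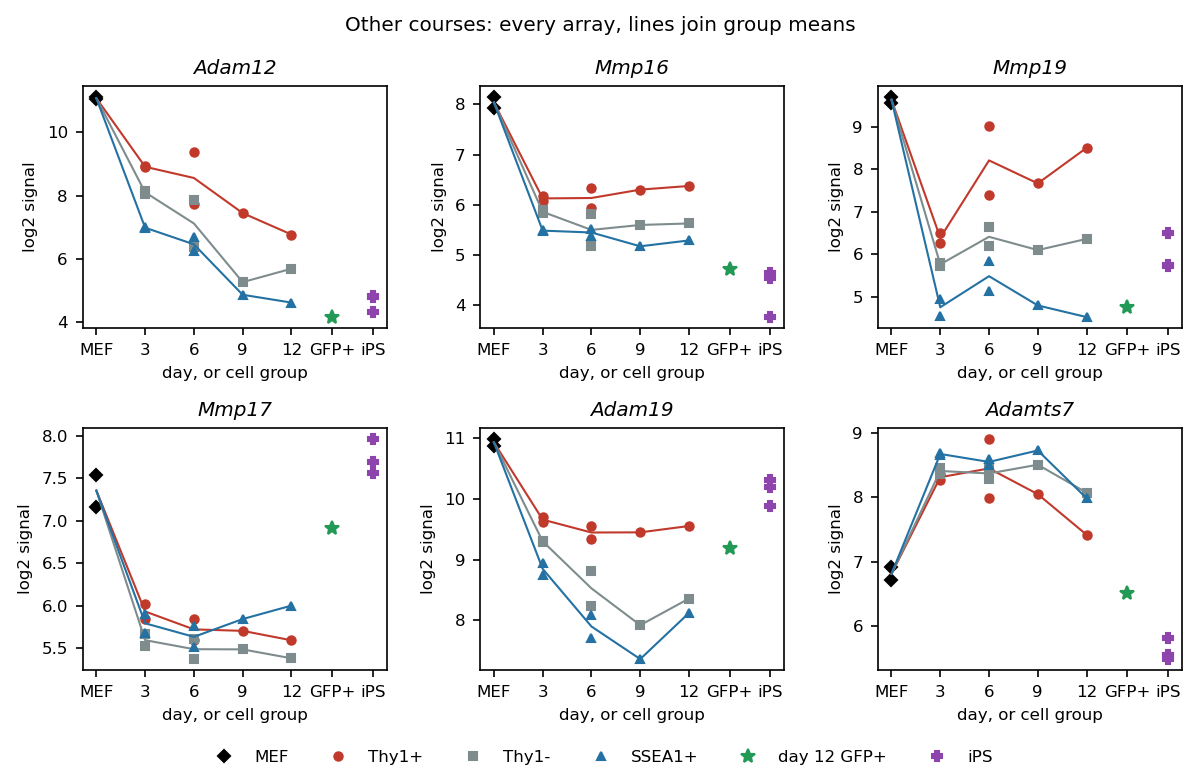
Log2 level of Adam12, Mmp16, Mmp19, Mmp17, Adam19 and Adamts7 on each array against day, coloured by sorted fraction, with MEFs on the left, lines joining group means, and GFP+ and iPS arrays drawn apart. Adam12 is lower on days 9 and 12 than on day 3 in every fraction, Mmp17 and Adam19 are low in the sorted cells and high in iPS cells, and Adamts7 is high in the sorted cells alone.

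Adam12, or meltrin alpha, a fibroblast and muscle-lineage surface protease that acts on EGF-family ligands and IGF-binding proteins, had the largest fall of any member from MEFs to iPS cells. MEFs were at 11.04 and 11.12. Thy1+ cells were at 8.89 and 8.93 on day 3, 9.38 and 7.73 on day 6, 7.45 on day 9 and 6.77 on day 12. SSEA1+ cells were at 6.97 and 6.99, then 6.68 and 6.24, then 4.86 and 4.62, and the GFP+ and iPS arrays lay between 4.16 and 4.84. The fall was 6.44 log2 units (SE 0.42, adjusted p 7.48e-09). In late Thy1+ cells Adam12 was 3.97 log2 units below MEFs, whereas Adamts5, Timp2 and Mmp2 were not called in that comparison on the probe sets used.

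Adam12 was also the one member that fell in Thy1+ cells between day 3 and days 9 and 12, by 1.80 on the log2 scale (SE 0.46, adjusted p 0.0119). The call was lost without either day 3 array or without the day 12 array (adjusted p 0.0647, 0.0681 and 0.124). The call of its fall in SSEA1+ cells from day 6 to days 9 and 12 (-1.72, adjusted p 0.0445 by limma) was lost in 4 of 5 omissions. Those 5 include the day 6 Thy1+ M2 array, which is outside that comparison.

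Adam19, or meltrin beta, a sheddase of neuregulin needed for heart development, and Mmp17, an MMP held to the membrane by a lipid anchor, were low in the intermediates and returned in iPS cells. Adam19 was at 10.88 and 10.99 in MEFs, 9.34 to 9.70 in Thy1+ cells, 7.36 to 8.94 in SSEA1+ cells, 9.19 on the GFP+ array and 10.20, 9.89 and 10.32 in iPS cells. Mmp17 was at 7.16 and 7.54 in MEFs, 5.59 to 6.02 in Thy1+ cells, 5.51 to 6.00 in SSEA1+ cells, 6.92 on the GFP+ array and 7.69, 7.56 and 7.96 in iPS cells. For both genes the iPS arrays lay above every sorted array on the probe sets used. There the GFP+ array was above every sorted array for Mmp17 and above the Thy1- and SSEA1+ arrays of days 6 to 12 for Adam19. Neither held fully on the second Adam19 probe set. On it the day 6 Thy1+ M2 array of doubtful RNA, at 9.55, was above iPS 1-6 (9.10) and 1-3 (9.16). The GFP+ array, at 7.47, was below the day 6 Thy1- M2 array at 7.75.

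The difference of iPS cells from day 6 SSEA1+ cells is given as a description of these levels, since the comparison was chosen after they were seen and its p-values would add no support. In it 20 members were called, 2 higher and 18 lower, at 21.2% of all genes called. The 2 higher were Adam19, 4.73-fold (2.24, SE 0.18), and Mmp17, 4.30-fold (2.10, SE 0.16), and the second Adam19 probe set was higher by 2.37. Adamts7 was 7.61-fold lower (-2.93, SE 0.20) and Adamts5 19.3-fold lower (-4.27, SE 0.28). Against MEFs, Mmp17 in iPS cells differed by 0.39 (SE 0.16, adjusted p 0.0579) and Adam19 by -0.80 (SE 0.18, adjusted p 0.00149), both under 2-fold. Other probe sets of the members lower in iPS than in day 6 SSEA1+ cells did not all differ 2-fold. The second set differed by -0.37 for Mmp14 (first -1.64), by -0.23 for Mmp16 (first -1.14) and by -0.20 for Mmp24 (first -1.07). The 2 other Adam10 sets differed by -0.59 and -0.89, 2 of 4 Adam15 sets by -0.43 and -0.33, 2 of 5 Timp2 sets by -0.18 and -0.72, and 1 of 4 Timp3 sets by -0.68.

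The broadly expressed sheddases moved less. Adam10, which releases Notch and cadherins, was between 10.49 and 12.40 in the sorted cells, at 11.28 and 11.37 in MEFs, at 9.78 on the GFP+ array and at 9.48, 10.19 and 10.09 in iPS cells. Its fall from MEFs to iPS cells was 1.41 log2 units (SE 0.24, adjusted p 0.000131). Adam9, a relative with overlapping substrates, fell by 1.48 and Adam15, found at cell contacts, by 1.29, though one of the 3 other Adam15 probe sets fell by 1.98 and 2 differed by less than 1. Adam17, the enzyme that releases TNF and EGF-family ligands, was called in no comparison. It was at 10.10 and 10.05 in MEFs and 9.54, 9.56 and 9.52 in iPS cells, a difference of -0.53 (adjusted p 0.0381), and its highest array, 11.68, was the day 6 Thy1+ M2 array of doubtful RNA.

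Adam33, known from airway smooth muscle and fibroblasts, fell from 7.08 and 7.02 in MEFs to 5.57 and 5.50 in day 3 Thy1+ cells and was back at 6.88 and 7.03 on days 9 and 12. That return was a rise of 1.42 log2 units (SE 0.16, adjusted p 2.61e-05), and iPS cells were at 5.38, 5.13 and 5.41. Adam23, a neural adhesion protein without protease activity, was between 8.59 and 9.66 in all sorted cells and 7.81 to 8.54 in iPS cells. The ADAMs of testis and sperm were never called: across the 24 arrays Adam2, Adam3, Adam5, Adam7 and Adam18 ranged over 0.41 to 1.00 log2 units, and Adam1a and Adam24 over 1.22 and 1.20.

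All 3 inhibitors fell from MEFs to iPS cells, and they parted earlier. Timp1, a soluble inhibitor that many stimuli induce, was at 12.13 and 12.04 in MEFs and between 11.19 and 12.79 on all 18 sorted arrays. It was at 9.92 on the GFP+ array and at 10.29, 9.93 and 11.02 in iPS cells. The GFP+ and iPS arrays all lay below every sorted array. Timp1 fell 3.18-fold from MEFs to iPS cells (-1.67, SE 0.31, adjusted p 0.000281) and was called neither on day 3 nor between fractions (-0.58 for SSEA1+ minus Thy1+, adjusted p 0.00382, under 2-fold).

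Timp2, which blocks MMPs and also carries the Mmp2 precursor to Mmp14, was at 12.05 and 12.07 in MEFs. Thy1+ cells had 11.28 and 11.22 on day 3, 11.26 and 11.97 on day 6, 12.20 on day 9 and 12.16 on day 12. SSEA1+ cells had 10.24 and 10.40, then 10.53 and 10.59, then 9.99 and 9.17, against 8.16 on the GFP+ array and 8.62, 7.95 and 9.60 in iPS cells. On this probe set late Thy1+ cells were at the MEF level (0.12, adjusted p 0.871) and late SSEA1+ cells lay below every Thy1+ array. Another Timp2 probe set was 1.19 log2 units lower in late Thy1+ cells than in MEFs (adjusted p 0.017), and a dim one differed by -0.67. Timp2 was 2.88-fold lower in SSEA1+ than in Thy1+ cells over all days (-1.53, SE 0.23, adjusted p 9.17e-05). Its late Thy1+ difference from day 3 was 0.93 (adjusted p 0.094), and 2 other Timp2 probe sets rose there by 1.28 and 1.33 while another set differed by 0.12.

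Timp3, which binds the matrix and also inhibits ADAM17 and the aggrecanases, was at 11.32 and 11.40 in MEFs and at 10.72 and 10.58 in day 3 Thy1+ cells. It then reached 12.56 and 11.80 on day 6, 12.25 on day 9 and 12.36 on day 12 in Thy1+ cells. On this probe set all of these lay above both MEF arrays. The 12.56 is from the M2 array of doubtful RNA, which lay below both MEF arrays on the other 3 Timp3 probe sets. The day 6 M3 array was above both on only some sets. The day 9 and day 12 arrays were above both on every set, but late Thy1+ cells were not called against MEFs on any. SSEA1+ cells stayed between 9.64 and 10.28, the GFP+ array was at 8.84 and iPS cells were at 8.13, 7.19 and 9.21. The late Thy1+ rise was 1.66 (SE 0.43, adjusted p 0.0140), and the other 3 Timp3 probe sets rose by 1.66 to 1.80. With either day 3 array or the day 12 array left out, the adjusted p was 0.0635 to 0.0858. Between fractions Timp3 was 3.36-fold lower in SSEA1+ than in Thy1+ cells (-1.75, SE 0.19, adjusted p 8.71e-06).

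The iPS 1-3 array stood above the other iPS arrays for the inhibitors, and its fibroblast list mean was the highest of the 3. Without it the falls from MEFs were 1.98 for Timp1, 3.78 for Timp2 and 3.70 for Timp3 on the log2 scale, each larger than with it.

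Across fractions, 13 members were lower in SSEA1+ than in Thy1+ cells over all days and none was higher, at 8.57% of all genes called. The median difference of the members was -0.24 and that of all genes 0.02. Mmp19 (-2.59), Mmp2 (-2.30), Adam12 (-2.13), Mmp14 (-2.02), Mmp23 (-1.87), Adamts5 (-1.77) and Timp3 (-1.75) led these. All 13 were called again without the day 6 Thy1+ M2 array, with 1 more. Thy1- cells differed from Thy1+ cells in 2 members, at 1.91% of all genes called, Mmp19 by -1.42 (SE 0.30, adjusted p 0.0118) and Adam12 by -1.29 (SE 0.27, adjusted p 0.0119). That count rose to 6 and 5 without the M2 or the M3 array of day 3 Thy1+ cells.

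Fibroblast markers move with these fractions. On day 3 the mean of the fibroblast list was 10.44 in Thy1+, 10.09 in Thy1- and 9.58 in SSEA1+ cells, and on day 12 it was 11.19, 10.16 and 8.68. Of its 12 genes, 9 were lower in SSEA1+ than in Thy1+ cells. The list and these 9 include Thy1, by which the fractions were sorted. The part of the fibroblast list in the protease differences was not tested.

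Within fractions, no member was called between day 3 and day 6 in SSEA1+ cells by limma, with 6 at an unadjusted p below 0.05 (4 higher, 2 lower), at 1.80% of all genes called. From day 6 to days 9 and 12 in SSEA1+ cells 5 members fell, at 2.39% of all genes called: Adam12, Mmp2 (-1.42), Mmp14 (-1.33), Adamts5 (-1.27) and Adamts4 (-1.16). Here Mmp2 lost its call without the day 12 array (-1.03, adjusted p 0.0934) and Adamts5 without that array or either day 6 array, with adjusted p up to 0.364. The count was 2 without the day 12 array and 3 without either day 6 array. The second probe sets of Mmp14 (-0.54), Adam12 (-1.34, adjusted p 0.255) and Adamts5 (-1.27, adjusted p 0.0542) were not called by limma. That of Adamts4 was (-1.71).

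The Thy1+ comparison starts from day 3 and the SSEA1+ one from day 6, so the 2 are not mirror images. Of the members that fell in SSEA1+ cells, only Mmp2 rose in Thy1+ cells. Adam12 fell in both fractions, and Mmp14 (0.70), Adamts5 (0.50) and Adamts4 (-0.05) were not called in Thy1+ cells. Between day 3 and days 9 and 12, 8 members rose and 1 fell, at 7.78% of all genes called: Adamts10, Mmp13, Adamts15, Mmp2, Mmp19, Timp3, Mmp11 and Adam33 rose, and Adam12 fell. The count was 5 without the day 12 array or without the day 3 M3 array. Against MEFs, late Thy1+ cells differed in 10 members, 3 higher (Adamts15, Mmp13 and Adamts10) and 7 lower, at 9.16% of all genes called. The 7 lower were Adam12, Mmp17, Mmp16, Mmp19, Adam19, Mmp23 and Adamts1. Of these, Mmp19 and Adamts1 lost the call in 3 of 5 omissions, where the 5 include the uncompared day 6 Thy1+ M2 array. The fibroblast list rose in part with them, with Pdgfrb and Dcn called of 12 genes and a list mean of 10.44 on day 3, 10.99 on day 9 and 11.19 on day 12, and its part was not tested.

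The SSEA1+ minus Thy1+ difference, or gap, was more negative on days 9 and 12 than on day 3 for 10 members and less negative for none, at 8.46% of all genes called. For Mmp2 the SSEA1+ minus Thy1+ difference was -1.16 on day 3 and -3.75 on days 9 and 12, a change of -2.58 (SE 0.30, adjusted p 6.36e-05). Adamts15 and Mmp13 had gaps near 0 on day 3 (-0.004 and -0.02) and of -2.36 and -2.04 later. Mmp14 went from -1.04 to -3.18 and Adamts10 from -0.31 to -2.32. Mmp19, which already had a wide gap on day 3, was not called here (-1.79, adjusted p 0.0637). The days 9 and 12 side of this comparison is 1 array per fraction and day. Without day 12 Thy1+ or day 12 SSEA1+ cells the change for Mmp13 was -0.95 (adjusted p 0.0971), and Adamts5, Adamts1 and Adam33 also lost their calls.

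**Figure D4:**
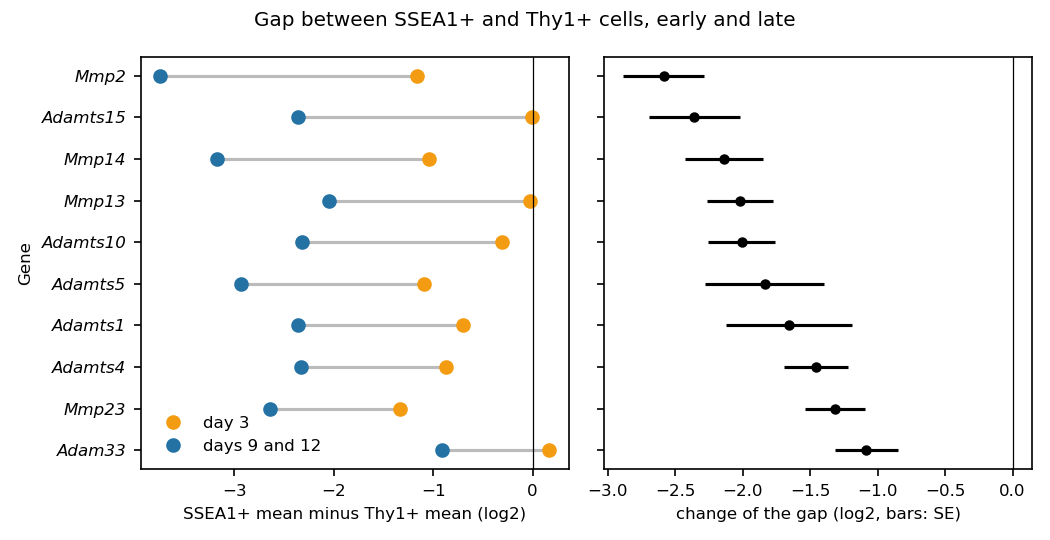
SSEA1+ minus Thy1+ difference in log2 level on day 3 and on days 9 and 12 for the 10 members whose gap changed, and the change with its standard error. Every gap is more negative late than on day 3, from a change of -1.08 for Adam33 to -2.58 for Mmp2.

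Regulators and fellow proteases from lists chosen with earlier results known were counted by the same rule, and the counts between MEFs and iPS cells stand beside 30.8% of all genes called. Of 11 genes that activate, bind or restrain MMPs, 8 fell and 1 rose from MEFs to iPS cells. They include Reck, a membrane-bound MMP inhibitor (-1.70), Furin, which cuts MMP precursors (-1.55), and the matrix protein Thbs2 (-5.59), while the broad protease trap A2m rose by 3.36. Reck also rose in late Thy1+ cells (1.72, SE 0.23, adjusted p 8.97e-05) and was lower in SSEA1+ than in Thy1+ cells (-1.88, SE 0.24, adjusted p 2.51e-05). Of 16 other matrix proteases 8 fell and 3 rose from MEFs to iPS cells, led by the fibroblast protease Fap (-4.60) and Htra3 (-3.96), with Dpp4 up by 2.26. Fap and Htra3 rose in late Thy1+ cells by 2.25 and 2.30.

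Of 10 genes of the plasminogen system, which activates several MMPs from outside, 4 fell from MEFs to iPS cells, a share near that of all genes, with tissue plasminogen activator Plat by 4.11 and urokinase Plau by 1.71. Of 15 cathepsins and cystatins 7 fell, with the collagen-cutting Ctsk by 3.74. Among 7 proteoglycans that ADAMTS enzymes cut, 4 fell, with Dcn by 6.43 and Vcan by 3.52, and the cartilage proteoglycan Acan rose by 2.44. Of 17 proteins shed by ADAM10 or ADAM17, 5 fell and 2 rose, again a share near that of all genes, with Cdh1, the epithelial cadherin, up by 7.77.

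The second set held SSEA1+ cells of day 6, negative for Thy1 and GFP and sorted by the epithelial surface protein EpCAM, 2 arrays each, for which the labels give no strain. Of its 54 members, 2 were lower in EpCAM+ cells and none was higher, at 0.750% of all genes called. Adamts5 was at 9.63 and 9.98 in EpCAM- cells and at 8.45 and 8.13 in EpCAM+ cells, 2.86-fold lower (-1.52, SE 0.16, adjusted p 0.0125). Adamts1 was at 7.89 and 8.02 against 6.86 and 6.47, 2.44-fold lower (-1.29, SE 0.14, adjusted p 0.0155). For both genes the groups did not overlap, and both calls were lost with any 1 of the 4 arrays left out (adjusted p up to 0.231).

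Smaller differences on these arrays were not called. Timp2 was at 9.10 and 8.95 in EpCAM- and 8.50 and 8.44 in EpCAM+ cells (-0.56, adjusted p 0.0412, under 2-fold), and Mmp14 was at 10.06 and 9.83 against 9.63 and 9.25 (-0.51, adjusted p 0.149). Adam19 was at 7.08 and 7.02 against 7.28 and 7.32 (0.25, adjusted p 0.179). Of 12 pluripotency markers 6 were higher in EpCAM+ cells, and 2 of 14 fibroblast markers, Col1a2 and Col3a1, were lower. The 18S signal was 12.3 and 11.2 in EpCAM- and 10.7 and 10.5 in EpCAM+ cells, and the part of these in the protease differences was not tested.

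**Figure D5:**
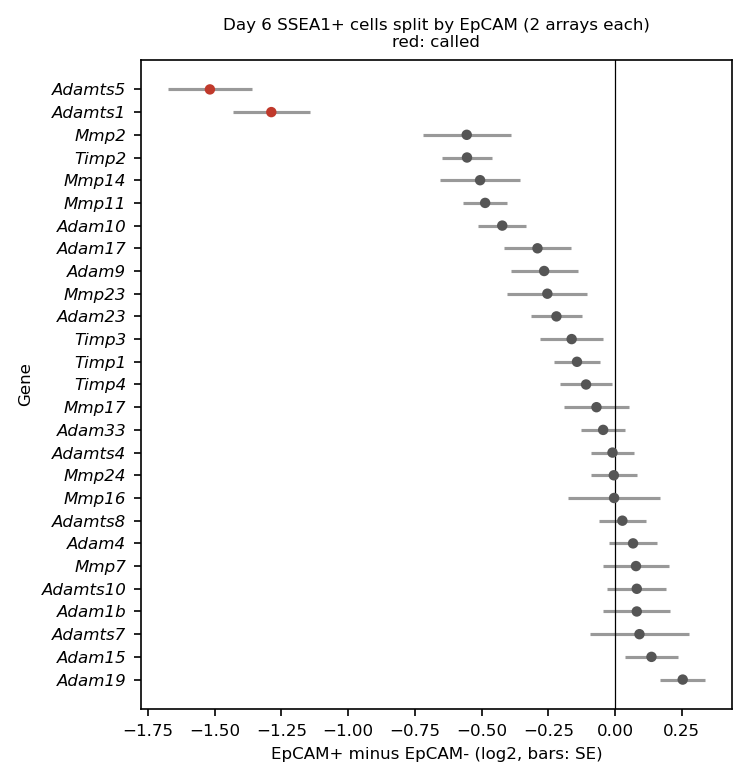
EpCAM+ minus EpCAM- difference in log2 level, with its standard error, for the 27 members above the dimmest 25% of genes on these 4 arrays. The called members, Adamts5 at -1.52 and Adamts1 at -1.29, are in red and lie apart from the other members.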

How the data were processed

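The values are log2 signals of array probe sets that the authors deposited after RMA, per the submitters' processing notes; RMA's settings, and whether the 24 and the 4 arrays were normalised in separate runs, are not given in the sources used here, and the 2 tables were never mixed. Probe sets with 1 gene symbol in the platform annotation were kept (18003 of 22716, and 20393 of 22690), and each gene took the probe set with the highest mean; 18 members of the larger table had more than 1. Arrays replaced counts, so no depth applies and the number of arrays limits the precision. limma 3.58.1 in R 4.3.3 fitted 1 mean per group over all 24 arrays (9 residual degrees of freedom); differences between fractions over days used the 18 sorted arrays with day and fraction terms (12), and the EpCAM set its 4 arrays (2). Single-array groups borrow the spread of the others. A call needed an adjusted p below 0.05 over all genes and a 2-fold difference. The fits were tested on simulated data: of 200 genes changed by 1.5 log2 units, 99% were recovered for iPS cells against MEFs, 87% for the change in gap and 100% for EpCAM. Among unchanged genes, 7 were called for the change in gap and 4 for iPS against GFP+ cells. The noise was independent and drawn from the fitted variances, so recovery checks the fit and not the reliability of the real calls. Promoter windows and genome positions are RefSeq's, build GRCm38.p6. The members and lists were chosen with earlier results of these data known. Any member could be named, and full statistics went to called members, the largest first. Same-named arrays did not deviate together (21 pairs, r from -0.21 to 0.21), so the replicate names were not used in the fit. Alternatives changed the fold minimum, dim genes, scaling, probe sets, variance prior, block, groups fitted and arrays. Python 3.11.15, pandas 2.3.3, numpy 2.4.6 and matplotlib 3.10.9 were used.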

Additional observations from a re-analysis of the deposited data

Results flagged for a closer look

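For 10 members the difference between SSEA1+ and Thy1+ cells was itself different on days 9 and 12 from what it was on day 3, by a limma test of that change with Benjamini-Hochberg adjustment over all genes. The change in the log2 gap was -2.58 for Mmp2, -2.36 for Adamts15, -2.14 for Mmp14, -2.02 for Mmp13, -2.01 for Adamts10, -1.84 for Adamts5, -1.66 for Adamts1, -1.46 for Adamts4, -1.32 for Mmp23 and -1.08 for Adam33. The 9 omissions of 1 array include the uncompared day 6 Thy1+ M2 array. Over these 9, the calls of Adamts1 (6 lost), Adamts5 (4), Adam33 (2) and Mmp13 (2) were not kept in each, and the other 6 members kept theirs in every one. On days 9 and 12 each fraction is 1 array per day.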

How the results depend on the processing

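The 122 called values of members were recomputed 1763 times under other settings; 1680 kept direction and call, 83 kept direction but lost the call, and none reversed. Of the 83, 65 came from leaving out 1 array, 9 from averaging all probe sets, 5 from median scaling, 2 from fitting only the groups compared, 1 from quantile scaling and 1 from the replicate block. Counts of called members that moved by over 1.5 times were as follows, and the cause was not tested except for the fold minimum, whose removal can only add calls. Without the fold minimum there were 2 instead of 0 for day 6 against day 3 SSEA1+ cells, 8 instead of 2 for iPS against GFP+ cells, 28 instead of 13 for SSEA1+ against Thy1+ cells, 12 instead of 2 for Thy1- against Thy1+ cells and 4 instead of 2 for EpCAM. With the mean of all probe sets there were 3 instead of 5 for SSEA1+ cells of days 9 and 12 against day 6, and with only the groups compared there were 0 instead of 2 for iPS against GFP+ cells. Leaving out 1 array at a time gave 20 to 22 for iPS cells against MEFs, 11 throughout for day 3 Thy1+ and 15 to 17 for day 3 SSEA1+ cells against MEFs. It gave 0 to 1 for day 6 against day 3 and 2 to 5 for days 9 and 12 against day 6 in SSEA1+ cells. The ranges were 5 to 10 for Thy1+ cells of days 9 and 12 against day 3, 8 to 10 for the same cells against MEFs, and 1 to 4 for iPS against GFP+ cells. They were 13 to 14 for SSEA1+ and 2 to 6 for Thy1- against Thy1+ cells, 7 to 13 for the change in gap, 0 in all 4 cases for EpCAM, and 18 to 20 for iPS against day 6 SSEA1+ cells. With a replicate block the counts were 22 for iPS cells against MEFs, 4 for SSEA1+ cells of days 9 and 12 against day 6, where Adamts5 lost its call (-1.20, adjusted p 0.0562 by limma), and 11 for the change in gap, and were the same in every other comparison. Median scaling shifted the median of all genes between iPS cells and MEFs by 0.13, the only shift above 0.1. With 1 or 2 arrays in most groups and 25 members near the floor of signal, changes of dim members may go undetected.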
